A study of Rattus norvegicus with 6 samples.

Results

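Complement is the cascade of plasma and cell-surface proteins that marks damaged cells and microbes, and 9 of its transcripts were compared between a normal rat carotid artery and arteries reopened after a clot. They are the chains of the recognition protein C1q (C1qa, C1qb and C1qc), the C1 inhibitor Serping1, the central component C3, the alternative pathway factors Cfb and Cfp, and the anaphylatoxin receptors C3ar1 and C5ar1. They were chosen by symbol from the 24005 gene symbols of the deposited read counts. All 9 were found, and all 9 passed the filter on low counts that left 15860 genes for testing.

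The libraries were made from polyadenylated mRNA of the common carotid artery. The control group was 1 normal artery. The day 1 group was 3 arteries and the day 7 group was 2 arteries, in which ferric chloride, a salt that damages the vessel wall by oxidation, had produced a clot, and which were collected 1 day and 7 days after the vessel had been reopened. Reopening combined sonodynamic therapy, that is, a sensitizer drug activated by ultrasound, with what the labels call physical-explosion therapy. No group had the injury or the therapy alone, so the effects of each cannot be told apart. The sources used here do not give the strain, sex or age of the rats, nor whether each library is a separate animal. The p-values therefore reflect only how far these samples spread, which may be technical.

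C1q is a bundle of collagen-like stems and globular heads assembled from chains of its A, B and C types. When its heads bind antibody or dying cells, the attached proteases C1r and C1s become active and C1s cuts C4 and C2, which begins the classical pathway. Serping1 inactivates those proteases. Cleavage of C3 coats the target and releases a small fragment, C3a, while factor B (Cfb) and properdin (Cfp) build and stabilise the amplifying enzyme of the alternative pathway. The released fragments act on C3ar1 and C5ar1 of myeloid cells. The liver makes most circulating complement, C1q comes largely from macrophages, and fibroblasts, endothelium and smooth muscle can make several of the other components.

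Library totals ranged from 30078022 to 47240013 counts, and the limit that a count of 0 allows, taken as 3 counts, was 0.0598 to 0.0974 CPM (a library's count scaled to a common normalised total). Such limits, and the Poisson intervals given for single libraries, cover counting error only. Transcripts of smooth muscle, the main cell of the labelled tissue, were abundant in every library. Their 8 markers summed to 27110 CPM in the control, 27940, 6416 and 9665 CPM at day 1, and 17180 and 16940 CPM at day 7. Above the control were 4, 0 and 0 of these 8 in the day 1 libraries, and 2 and 2 at day 7. Day 1 replicate 1 stood apart: the correlation of its log2 CPM over tested genes (Pearson r) was 0.948 with the control against 0.883 and 0.919 with the other day 1 libraries. The 13 macrophage markers summed to 79.8 CPM in the control and 56.5 CPM in day 1 replicate 1, against 7018 and 3416 CPM in day 1 replicates 2 and 3 and 6840 and 5948 CPM at day 7. None of the 13 was at 0 in any library, and 3 of them exceeded the control in day 1 replicate 1, 12 in each of the other day 1 libraries, and all 13 in both day 7 libraries. In bulk tissue, fewer cells of a type and less RNA per cell cannot be told apart. In other marker lists day 1 replicate 1 was unlike the control. Erythroid markers summed to 2298 CPM there and 234 CPM in the control, against 1268 and 1214 CPM in the other day 1 libraries. Neutrophil markers summed to 26.4 CPM there and 2.60 CPM in the control, and endothelial markers to 96.1 and 1104 CPM. Whether the label of day 1 replicate 1 is right was not settled, and the members' day 1 results against the control are given with and without it. Leaving it out selects on likeness to the control, and calls made without it carry that limit.

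The transcripts for the C1q chains were, after Serping1, the most abundant of the 9 per length in the day 7 arteries, and were higher there than in any other library. In the RefSeq annotation of the GRCr8 assembly the C1q genes are neighbours in the order C1qb, C1qc, C1qa. Because their levels moved together, the promoters of the outer genes are shown, each with 250 bases before and 50 bases after the annotated start. The C1qa window is chr5:154419884-154420183 and the C1qb window chr5:154407778-154408077, both on the minus strand of GRCr8 and written 5′ to 3′. The sequences are RefSeq's, the table holds 5 of the 9 members, and the build behind the deposited counts is not given in the sources used here. Capitals mark matches, on either strand, to letter patterns of factors that act in myeloid and inflamed cells.
C1qa: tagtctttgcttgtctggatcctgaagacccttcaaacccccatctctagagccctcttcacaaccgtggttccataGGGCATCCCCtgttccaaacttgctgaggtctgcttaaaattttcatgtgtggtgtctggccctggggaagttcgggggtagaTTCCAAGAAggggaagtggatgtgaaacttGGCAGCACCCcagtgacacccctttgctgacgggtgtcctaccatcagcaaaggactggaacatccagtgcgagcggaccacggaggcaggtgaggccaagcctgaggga
C1qb: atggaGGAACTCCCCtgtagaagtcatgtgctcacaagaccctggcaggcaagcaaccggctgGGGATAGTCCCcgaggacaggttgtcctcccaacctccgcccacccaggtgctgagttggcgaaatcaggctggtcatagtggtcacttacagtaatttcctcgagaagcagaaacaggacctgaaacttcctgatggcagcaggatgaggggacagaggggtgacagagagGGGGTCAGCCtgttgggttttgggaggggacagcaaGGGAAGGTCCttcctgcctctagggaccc
The patterns searched on both strands were AGAGGAA and GAGGAAG for PU.1-type sites, TTCNNNGAA for STAT-type and TTNNGNAA for C/EBP-type sites, where N is any base. For NF-kB-type sites the pattern was GGG and CC with 5 free bases between them, and for IRF-type sites GAAA repeated after 2 free bases. The PU.1-type patterns overlap each other. C1qa held TTCCAAGAA, a STAT-type match that starts 90 bases before the transcription start, and 8.87% of all 33469 promoters in the table hold a match of that type. Both windows held NF-kB-type matches, some overlapping on the opposite strands, as did 47.3% of promoters. Neither held the PU.1-type letters, found in 10.5% and 12.4% of promoters, nor the C/EBP-type (41.3%) or IRF-type (3.92%) letters. The Cfp window, not shown, held AGAGGAA on the opposite strand, starting 60 bases before the transcription start, and NF-kB-type matches. The C3ar1 window, also not shown, held only an NF-kB-type match. A match is a description of letters and not a binding site.

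C1qa had 6.17 CPM in the control, 1.63, 70.3 and 20.4 CPM in day 1 replicates 1 to 3, and 199 and 114 CPM in day 7 replicates 1 and 2. C1qb had 7.86 CPM in the control, 2.15, 47.7 and 23.9 CPM at day 1, and 169 and 72.6 CPM at day 7. C1qc had 7.79 CPM in the control, 2.63, 46.1 and 23.0 CPM at day 1, and 187 and 98.5 CPM at day 7. For each chain both day 7 libraries lay above all 3 day 1 libraries and above the control, whereas day 1 lay on both sides of the control.

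The control exceeded day 1 replicate 1 by 3.78-fold for C1qa, 3.66-fold for C1qb and 2.97-fold for C1qc. The exact Poisson 95% interval of C1qa was 1.22 to 2.15 CPM there against 5.32 to 7.11 CPM in the control. The day 7 libraries differed from each other by 1.75-fold for C1qa, 2.33-fold for C1qb and 1.90-fold for C1qc, so the spread within day 7 was itself wide. Fold changes and their standard errors (SE) come from the edgeR quasi-likelihood fit, and a gene was called where its p, adjusted by Benjamini-Hochberg over all tested genes, was under 0.05. Day 7 against day 1 gave log2 fold changes of 2.35 (SE 1.3) for C1qa, 2.30 (SE 1.13) for C1qb and 2.58 (SE 1.06) for C1qc, and none of the chains passed (edgeR adjusted p = 0.556, 0.532 and 0.502). Against the control, day 7 gave 4.66 (SE 2.26), 3.94 (SE 1.90) and 4.20 (SE 1.78), with edgeR adjusted p = 0.479, 0.479 and 0.477. Leaving out day 1 replicate 1, which enters the pooled spread, C1qc was called higher at day 7 relative to the normal artery (log2 fold change 4.20, SE 0.70, edgeR adjusted p = 0.0322, over 12 alternatives of several tools 0.0322 to 0.765), while C1qa (edgeR adjusted p = 0.0737) and C1qb (0.0579) were not. DESeq2 with all libraries also called C1qc there (DESeq2 adjusted p = 0.0438). At day 1 the log2 fold changes over the control were 2.32 (SE 1.92) for C1qa, 1.64 (SE 1.6) for C1qb and 1.62 (SE 1.49) for C1qc, and without that library 2.88 (SE 0.90), 2.19 (SE 0.71) and 2.15 (SE 0.62). Neither fit called any chain at day 1 (edgeR adjusted p = 0.695, 0.737 and 0.721 with it, and 0.151, 0.156 and 0.119 without it). Between the days the values without it were 1.79 (SE 0.64), 1.76 (SE 0.53) and 2.05 (SE 0.47), which were not called either (edgeR adjusted p = 0.351, 0.296 and 0.203).

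**Figure D1:**
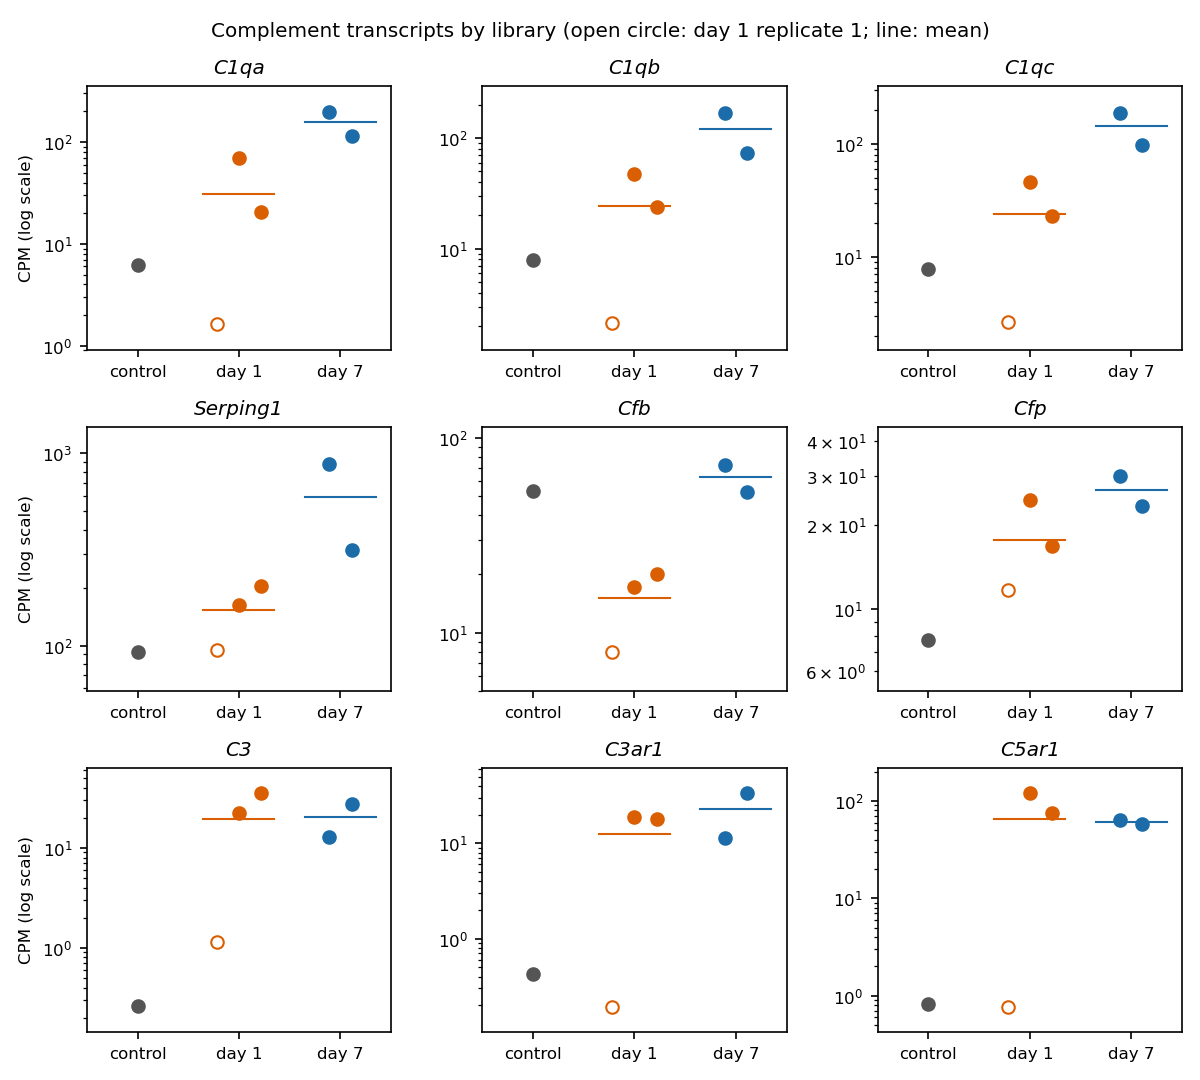
CPM (log axis) of the 9 complement transcripts in the control (1 library), day 1 (3 libraries, with replicate 1 as an open circle) and day 7 (2 libraries); lines are group means. The C1q chains, Serping1 and Cfb are higher in both day 7 libraries than in all day 1 libraries, and the C3ar1 and C5ar1 points of day 1 replicate 1 lie at or below the control.

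The proportions of the chains varied far less than their sum. Per length, as FPKM (the authors' count scaled by gene length and library total), C1qa made up 27.8 to 45.7% of the summed C1q level over the 6 libraries, C1qb 25.5 to 36.3% and C1qc 25.5 to 38.2%. C1qa held the highest share in day 1 replicate 2 and in both day 7 libraries. Over the 6 libraries the log2 CPM of the chains had pairwise Pearson r of 0.994 to 0.996, as a description of libraries that also differ in macrophage transcripts.

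Set against macrophage transcripts, how the day 7 arteries compared with the day 1 arteries rich in macrophage markers depended on the marker. Cd68, a lysosomal protein of macrophages, had 1.10 CPM in the control, 1.47, 262 and 142 CPM at day 1 and 227 and 128 CPM at day 7. The summed CPM of the C1q chains per CPM of Cd68 was 0.626 and 0.474 in day 1 replicates 2 and 3, and 2.45 and 2.23 at day 7. It was higher still in the libraries with little Cd68, at 19.8 in the control and 4.35 in day 1 replicate 1. Csf1r, the receptor for macrophage colony-stimulating factor, had 13.2 CPM in the control, 4.64, 337 and 223 CPM at day 1, and 302 and 290 CPM at day 7. The C1q sum per CPM of Csf1r was 1.66 in the control, 1.38, 0.487 and 0.302 at day 1, and 1.84 and 0.981 at day 7. By these ratios the day 7 libraries lay above day 1 replicates 2 and 3 but not above every library. Per CPM of Adgre1, the F4/80 antigen, the C1q sum was 5.56 and 3.72 in day 1 replicates 2 and 3, and 15.6 and 4.47 at day 7, so that the days overlapped. The part of macrophage content in the C1q levels was not tested. Adgre1 itself had 1 count (0.0320 CPM) in day 1 replicate 1 and 18.1 to 63.7 CPM in the other 4 treated libraries, and Lyz2, the lysozyme of myeloid cells, 27.5 CPM there and 1902 to 4731 CPM in the other 4.

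**Figure D2:**
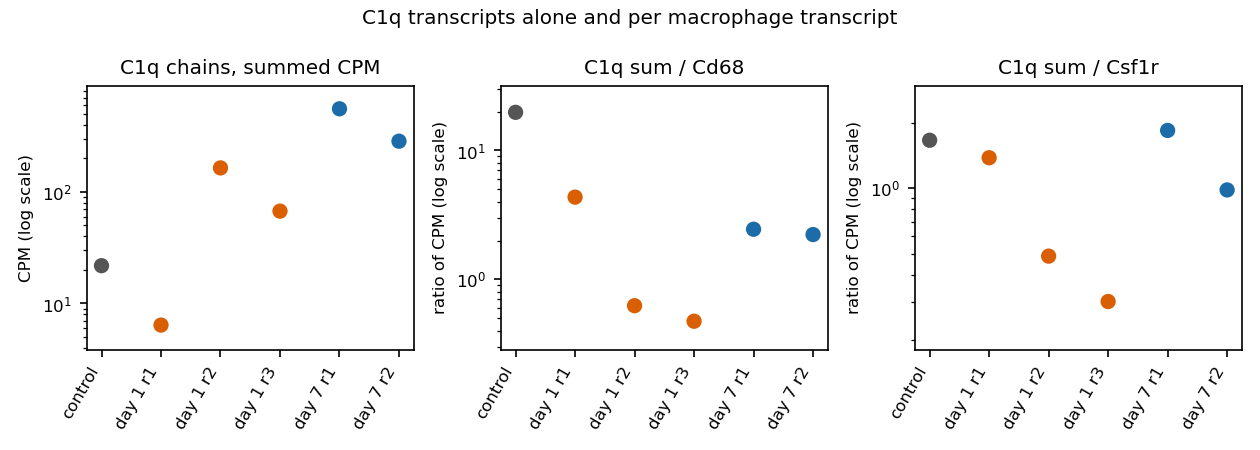
Summed CPM of C1qa, C1qb and C1qc (left), and the same sum divided by the CPM of Cd68 (middle) or Csf1r (right), per library on log axes. The sum is highest in the day 7 libraries (556 and 285 CPM), and both ratios are lowest in day 1 replicates 2 and 3.

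By the likeness rule, 5 genes followed the mean log2 CPM of the C1q chains most closely over the 6 libraries among 9466 genes whose log2 CPM averaged 3 or more. These were St6galnac4 (Pearson r = 0.999), Pnpla6 (0.996), Clec10a (0.994), Sipa1 (0.994) and Pltp (0.994). Clec10a, a lectin of macrophages and dendritic cells, had 3.38 CPM in the control, 1.44, 32.8 and 10.6 CPM at day 1, and 141 and 63.5 CPM at day 7. Pltp, the phospholipid transfer protein, had 25.8 CPM in the control, 12.3, 167 and 90.0 CPM at day 1, and 350 and 206 CPM at day 7. Pearson r takes no account of the size of the swing, and St6galnac4, a sialyltransferase, moved only between 33.8 and 62.7 CPM.

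Serping1 had the highest mean FPKM of the members in every group. It had 92.4 CPM in the control, 94.4, 163 and 204 CPM at day 1, and 876 and 316 CPM at day 7. Both day 7 libraries lay above all day 1 libraries, and day 1 replicate 1 was within 1.02-fold of the control. The day 7 libraries differed from each other by 2.77-fold. The log2 fold change of day 7 over day 1 was 1.95 (SE 0.53), and over the control 2.69 (SE 0.83). Neither passed (edgeR adjusted p = 0.459 and 0.477), and the DESeq2 Wald test called both (adjusted p = 0.0351, over 15 alternatives 0.0351 to 1, and 0.0215, over 12 alternatives 0.0215 to 0.765). At day 1 the log2 fold change over the control was 0.73 (SE 0.71, edgeR adjusted p = 0.734), and 0.99 (SE 0.63, edgeR adjusted p = 0.427) when day 1 replicate 1 was left out. Without that library day 7 over day 1 was 1.70 (SE 0.50, edgeR adjusted p = 0.292).

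The proteases that Serping1 inhibits were abundant already in the normal artery. C1r had 560 CPM in the control, 591, 408 and 681 CPM at day 1, and 809 and 724 CPM at day 7. C1s had 204 CPM in the control, 226, 401 and 478 CPM at day 1, and 653 and 598 CPM at day 7. Both day 7 libraries exceeded every day 1 library for both proteases, with log2 fold changes over day 1 of 0.45 (SE 0.31) for C1r and 0.77 (SE 0.37) for C1s that did not pass (edgeR adjusted p = 0.622 and 0.524). Per length, Serping1 stood at 0.643 to 0.714 of C1s FPKM in the control and at day 1, and at 2.12 and 0.833 at day 7. That ratio was above all other libraries in both day 7 libraries, although replicate 1 exceeded replicate 2 by far. Relative to C1r FPKM, Serping1 stood at 0.243 in the control, 0.2355, 0.590 and 0.441 at day 1, and 1.595 and 0.642 at day 7. By C1r, day 1 replicates 2 and 3 were already above the control. The 8 fibroblast markers, genes of cells that also express these proteases, summed to 14710 CPM in the control, 9420, 13890 and 12770 CPM at day 1, and 10630 and 17380 CPM at day 7. Col1a1 made up most of that sum, with 13530 CPM in the control and 7383 CPM in day 7 replicate 1. Dcn, decorin, had 527 CPM in the control, 372, 446 and 655 CPM at day 1, and 1413 and 996 CPM at day 7. Above the control were 1, 5 and 4 of the 8 fibroblast markers in the day 1 libraries, and 6 and 7 at day 7, and none was at 0 in any library. The part of fibroblast content in the Serping1 levels was not tested.

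The genes most like Serping1 were Gstp1, a glutathione transferase (Pearson r = 0.995), and the ribosomal protein genes Rplp1 (0.993) and Rps15 (0.992). The others were Ndufc1 (0.993) and Mrpl28 (0.992), nuclear genes of mitochondrial proteins. Their swings were smaller: Gstp1 had 60.9 CPM in the control, 65.3, 82.0 and 97.3 CPM at day 1, and 172 and 111 CPM at day 7.

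Factor B and C2 are related serine proteases with matching roles in the alternative and classical pathways, and their genes are next to each other in the GRCr8 annotation, yet their transcripts differed in order across the groups. Cfb had 53.4 CPM in the control, 7.97, 17.2 and 19.9 CPM at day 1, and 72.6 and 52.8 CPM at day 7. All 3 day 1 libraries lay below the control and below both day 7 libraries, an arrangement shared by 6.83% of tested genes. The day 7 libraries lay on either side of the control. The day 1 artery had a log2 fold change of -1.83 (SE 0.49) against the control and day 7 one of 2.06 (SE 0.42) against day 1, and neither passed (edgeR adjusted p = 0.521 and 0.413). When day 1 replicate 1 was left out the former was -1.53 (SE 0.31) and was called (edgeR adjusted p = 0.0446, over 12 alternatives 0.0446 to 0.736). DESeq2 called the latter (adjusted p = 0.00383, over 15 alternatives 0.00383 to 1). Day 7 against the control gave 0.23 (SE 0.57, edgeR adjusted p = 0.881).

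C2 had 2.79 CPM in the control, 2.53, 224 and 181 CPM at day 1, and 231 and 240 CPM at day 7. It was at the control level in day 1 replicate 1 and above it in the other 4 treated libraries, where macrophage markers were also above the control; their part in this was not tested. With that library left out, C2 was called higher than in the control at day 1 (log2 fold change 6.18, SE 0.42, edgeR adjusted p = 0.00583, over 12 alternatives 0.00583 to 0.840). It was also called at day 7 (6.40, SE 0.42, edgeR adjusted p = 0.00586, over 12 alternatives 0.00586 to 0.765). With all libraries it was not (edgeR adjusted p = 0.592 and 0.477).

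Endothelium can make factor B, and endothelial markers were low beside Cfb in 2 of the 3 day 1 libraries. The 8 markers summed to 1104 CPM in the control, 96.1, 1097 and 253 CPM at day 1, and 1601 and 1200 CPM at day 7. In day 1 replicate 2 the endothelial sum was close to the control while Cfb was 17.2 CPM, but single markers moved in both directions. Vwf had 721 CPM in the control and 262 CPM in that library, and Tie1 had 89.0 and 347 CPM. Above the control were 1, 5 and 3 of the 8 endothelial markers in the day 1 libraries, and 7 and 6 at day 7. None of the 8 was at 0 in any library, and their part in the Cfb levels was not tested.

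Properdin, encoded by Cfp, varied least among the members, by 3.85-fold from its lowest to its highest library. It had 7.76 CPM in the control, 11.7, 24.5 and 16.7 CPM at day 1, and 29.9 and 23.3 CPM at day 7. Every treated library was above the control, and the day 1 and day 7 libraries overlapped. The log2 fold changes over the control were 1.18 (SE 0.50) at day 1 and 1.77 (SE 0.54) at day 7, and neither passed (edgeR adjusted p = 0.578 and 0.477). Leaving out day 1 replicate 1 gave 1.41 (SE 0.40, edgeR adjusted p = 0.107) at day 1. Neutrophils and monocytes carry properdin: the 10 neutrophil markers summed to 2.60 CPM in the control, 26.4, 62.9 and 96.8 CPM at day 1, and 14 and 14.4 CPM at day 7. Ltf was at 0 in all libraries except day 7 replicate 2, where S100a8 was at 0, and the control also lacked Camp and Fpr1. The neutrophil sum was lower at day 7 than in every day 1 library, whereas Cfp overlapped between the days, and Cfp per CPM of Cd68 was 7.03 in the control, 7.91, 0.0933 and 0.118 at day 1, and 0.132 and 0.182 at day 7. The part of either cell type in the Cfp levels was not tested. Cfd, the protease that activates factor B, had 0.552 CPM in the control, 0.320, 11.9 and 4.38 CPM at day 1, and 67.5 and 38.3 CPM at day 7. Both day 7 libraries lay above all day 1 libraries, and without day 1 replicate 1 Cfd was called higher at day 7 than in the control (log2 fold change 6.57, SE 0.97, edgeR adjusted p = 0.0238, over 12 alternatives 0.00356 to 0.765). Adipocytes are a known source of Cfd in rodents, and their 4 markers summed to 0.0640 to 0.419 CPM over all libraries.

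C3 was the scarcest member per length in every group, at a mean of 0.0493 FPKM in the control, 4.0 FPKM at day 1 and 4.23 FPKM at day 7. In CPM it had 0.260 in the control (8 counts, exact Poisson 95% interval 0.112 to 0.512), 1.15, 22.6 and 35.2 at day 1, and 12.9 and 27.8 at day 7. All treated libraries exceeded the control, day 1 replicate 1 by 4.44-fold, and the day 1 and day 7 libraries overlapped. The log2 fold change over the control was 6.22 (SE 2.37) at day 1 and 6.27 (SE 2.40) at day 7, with edgeR adjusted p = 0.577 and 0.477. Without day 1 replicate 1 C3 was called at both times (6.78, SE 0.83, edgeR adjusted p = 0.0110, over 12 alternatives 0.00256 to 0.838; and 6.27, SE 0.81, edgeR adjusted p = 0.0142, over 12 alternatives 0.00649 to 0.765). DESeq2 with all libraries also called C3 at both times, which gives the lower ends of those ranges. Day 7 against day 1 gave 0.05 (SE 1.22, edgeR adjusted p = 0.992).

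Hepatocyte transcripts were scarce: Alb, serum albumin, Fgb and Ahsg had 0 counts in all 6 libraries, and the 6 hepatocyte markers summed to 0.493 to 1.96 CPM. The C3 promoter is shown because it held paired C/EBP-type matches, TTAGGAAA and TTGCGAAA, which start 117 and 104 bases before the transcription start, a type found in 41.3% of promoters. It lies at chr9:2201290-2201589 on the minus strand of GRCr8, and capitals mark the patterns listed for C1q, here of the C/EBP and NF-kB types.
C3: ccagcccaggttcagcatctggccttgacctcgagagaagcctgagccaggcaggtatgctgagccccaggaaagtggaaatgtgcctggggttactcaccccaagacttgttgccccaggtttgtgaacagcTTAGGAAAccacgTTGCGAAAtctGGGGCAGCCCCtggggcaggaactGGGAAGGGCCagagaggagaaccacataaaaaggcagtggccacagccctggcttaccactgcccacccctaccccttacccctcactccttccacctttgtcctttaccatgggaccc
The C1qa and C1qb windows held no C/EBP-type letters, and nothing about the factor follows from that. The genes most like C3 over the 6 libraries were Lamp2, a lysosomal membrane protein (Pearson r = 0.994), Ptprc, the pan-leukocyte antigen CD45 (0.990), Gss (0.988), Kif21b (0.988) and Gdap2 (0.987). Ptprc had 0.974 CPM in the control, 6.12, 191 and 147 CPM at day 1, and 94.6 and 132 CPM at day 7.

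The anaphylatoxin receptors were near or below the control in day 1 replicate 1 and far above it in the other 4 treated libraries. C5ar1, the receptor through which C5a recruits neutrophils and macrophages, had 0.812 CPM in the control (25 counts), 0.768, 121 and 74.9 CPM at day 1, and 63.3 and 58.2 CPM at day 7. C3ar1, the receptor of C3a, had 0.422 CPM in the control (13 counts), 0.192, 19.0 and 17.9 CPM at day 1, and 11.4 and 34.0 CPM at day 7. For both receptors day 1 and day 7 overlapped. With replicate 1 left out, both day 7 values of C5ar1 lay below both day 1 values, and those of C3ar1 still overlapped.

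C5ar1 and C3ar1 were called against the control only when that library was left out of the edgeR fit, or with DESeq2 (C5ar1 at both times, C3ar1 at day 7). For C5ar1 the log2 fold change over the control was 6.33 (SE 2.95) at day 1 and 6.22 (SE 2.96) at day 7, with edgeR adjusted p = 0.592 and 0.479. Without day 1 replicate 1 it was called in both (6.91, SE 0.54, edgeR adjusted p = 0.00583, over 12 alternatives 0.00583 to 0.867; and 6.22, SE 0.52, edgeR adjusted p = 0.00586, over 12 alternatives 0.00586 to 0.765). For C3ar1 the log2 fold change was 4.86 (SE 2.67) at day 1 and 5.74 (SE 2.83) at day 7, with edgeR adjusted p = 0.603 and 0.483. Without that library it was called in both (5.44, SE 0.90, edgeR adjusted p = 0.0287, over 12 alternatives 0.0287 to 0.877; and 5.73, SE 0.91, edgeR adjusted p = 0.0280, over 12 alternatives 0.0280 to 0.765). Day 7 against day 1 gave -0.11 (SE 1.54) for C5ar1 and 0.87 (SE 1.48) for C3ar1 (edgeR adjusted p = 0.984 and 0.846).

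Per CPM of Cd68, C5ar1 stood at 0.735 in the control, 0.522, 0.462 and 0.528 at day 1, and 0.279 and 0.455 at day 7. That ratio changed far less than C5ar1 itself and was lowest in the day 7 libraries, with replicate 2 close to day 1 replicate 2. Per CPM of Csf1r, C5ar1 stood at 0.0617 in the control, 0.1655, 0.360 and 0.336 at day 1, and 0.2095 and 0.2005 at day 7. By that marker the control was lowest, so the order of the libraries depended on the marker. C3ar1 per Cd68 ranged from 0.050 in day 7 replicate 1 to 0.382 in the control, with no order by group.

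Counted over the comparisons, 0 of the 9 members passed at day 1 against the control, at day 7 against the control, or at day 7 against day 1, where edgeR called 0% of all genes in each. At an unadjusted p under 0.05 there were 2, 3 and 2 members, against 8.66%, 10.1% and 10.1% of all genes. Day 1 replicate 1 was the treated library most like the control, so leaving it out selects on that likeness and narrows the pooled spread. Calls made without it are therefore not independent support. When day 1 replicate 1 was left out, 4 members were called at day 1 against the control (5.61% of all genes). Of these, 3 were higher (C3, C3ar1 and C5ar1, with 4.83% of genes) and 1 lower (Cfb, with 0.773%). In the same fit 4 were called at day 7 against the control (4.39% of all genes), all higher (C1qc, C3, C3ar1 and C5ar1, with 3.81% of genes) and 0 lower (0.577%). Between the days 0 were called (0%). At an unadjusted p under 0.05 that fit had 8 members at day 1 and 8 at day 7 against the control, and 5 between the days, against 21.6%, 20.4% and 12.9% of genes. DESeq2 called 2 members at day 1 against the control (5.1% of genes), both higher (4.41%) and 0 lower (0.687%). It called 5 at day 7 against the control (4.92%), all higher (3.84%) and 0 lower (1.08%), and 2 between the days (3.18%), both higher (1.32%) and 0 lower (1.87%). On simulated counts DESeq2 called many more unchanged genes than edgeR did, so its calls are to be read with caution. With edgeR, 13, 5 and 44 of 100 genes changed 4-fold were called, and 85, 83 and 92 of 100 changed 16-fold. These are for day 1 and day 7 against the control, then day 7 against day 1. For 4-fold changes DESeq2 called 60, 40 and 82. A lack of edgeR calls is therefore weak evidence of no change.

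**Figure D3:**
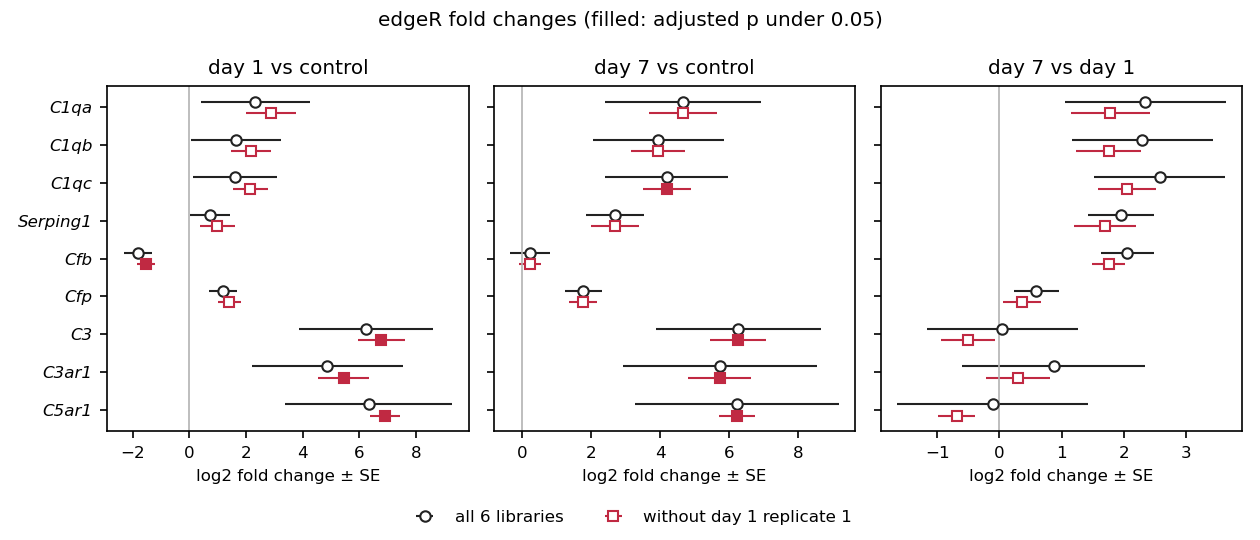
Log2 fold changes with their SE from edgeR for the 9 members in each comparison, with all 6 libraries (black circles) and without day 1 replicate 1 (red squares); filled symbols have an adjusted p under 0.05. No member is filled with all 6 libraries; C3, C3ar1 and C5ar1 are filled against the control at both times without that library, Cfb at day 1 and C1qc at day 7.

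In terms of separation, at day 7, 5 of 9 members (the C1q chains, Serping1 and Cfb) lay above all day 1 libraries, as did 17.2% of tested genes, and 0 lay below, as did 16% of tested genes. In a comparison chosen after seeing the data, without day 1 replicate 1, the same 5 lay above, against 24% of genes, and 1, C5ar1, lay below, against 22.6% of genes. Of the members, 8 lay above the control in both day 7 libraries (42.9% of genes) and 0 below it in both (36.2%), and 3 in all day 1 libraries (27.5% of genes), with 1 below it (27.2% of genes). The median log2 fold change of the members was 1.64 at day 1 and 4.20 at day 7 over the control, and 1.95 at day 7 over day 1, beside 0.06, 0.09 and -0.00 over all tested genes. The day 1 and day 7 comparisons with the control share that single library, whose own spread is unknown.

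Of 49 other complement symbols listed, 45 were in the files and 35 passed the filter, and edgeR called 0 of these 35 in each comparison (0% of all genes). At an unadjusted p under 0.05 there were 3 at day 1 and 6 at day 7 against the control, and 4 between the days, beside 8.66%, 10.1% and 10.1% of all genes. Without day 1 replicate 1, when 34 were tested, 7 were called higher at day 1 (Fcna, Fcnb, C2, C6, Cd55, Itgam and Itgb2, with 4.83% of all genes called higher) and 7 at day 7 (Masp1, Fcna, C2, C4b, Cfd, Itgam and Itgb2, with 3.81%). None was called lower in either, against 0.773% and 0.577% of all genes. With all libraries, the median log2 fold change of the 35 over the control was 0.85 at day 1 and 1.74 at day 7. Without day 1 replicate 1, that of the 34 was 1.35 and 2.02. Between the days, 11 of the 35 lay above all day 1 libraries at day 7 (17.2% of all genes) and 0 below (16%).

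C4b, the component cut by C1s, had 11.6 CPM in the control, 22.2, 50.5 and 42.5 CPM at day 1, and 183 and 88.9 CPM at day 7. Both day 7 libraries lay above all others, and DESeq2 called C4b between the days (log2 fold change 1.81, SE 0.54, DESeq2 adjusted p = 0.0325, over 15 alternatives 0.0325 to 1) where edgeR did not (1.83, SE 0.46, edgeR adjusted p = 0.436). Its close copy C4a had 0.422 CPM in the control, 2.53, 7.46 and 9.05 CPM at day 1, and 53.6 and 6.11 CPM at day 7, and the authors' counting may split reads between the copies. Masp1, a protease of the lectin pathway, had 5.23 CPM in the control, 2.82, 9.99 and 13.3 CPM at day 1, and 23.4 and 32.2 CPM at day 7. Masp2, which cuts C4 and C2 in that pathway, was highest in the control, with 17.7 CPM there and 6.98 to 11.6 CPM in all treated libraries.

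Of the ficolins, recognition proteins of the lectin pathway, Fcna had 0.909 CPM in the control, 0, 9.13 and 5.51 CPM at day 1, and 13.9 and 12.1 CPM at day 7. Fcnb had 0.0974 CPM in the control (3 counts), 0.768, 5.15 and 3.99 CPM at day 1, and 1.08 and 2.07 CPM at day 7. The mannose-binding lectins Mbl1 and Mbl2, made in liver, had 0 counts in every library.

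The subunits of complement receptor 3, which binds fragments of C3 on coated targets, were low in the control and in day 1 replicate 1. Itgam had 0.649 CPM in the control, 1.44, 301 and 132 CPM at day 1, and 136 and 97.4 CPM at day 7. Itgb2 had 1.69 CPM in the control, 4.0, 537 and 187 CPM at day 1, and 413 and 159 CPM at day 7. Itgax, the alpha subunit of complement receptor 4, had 3.02 CPM in the control, 4.0, 230 and 83.3 CPM at day 1, and 127 and 46.2 CPM at day 7. Day 1 and day 7 overlapped for each of them. C5ar2, the second receptor of C5a, had 2.73 CPM in the control, 3.17, 14.2 and 5.54 CPM at day 1, and 15.3 and 11.7 CPM at day 7. Vsig4, a complement receptor of resident macrophages, had 0.0325 CPM in the control (1 count), 0, 2.74 and 1.06 CPM at day 1, and 7.74 and 1.15 CPM at day 7.

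Among the regulators of complement, Clu and Cd59 were abundant in every library. Clu, clusterin, had 1472 CPM in the control, 1570, 841 and 1369 CPM at day 1, and 2837 and 1423 CPM at day 7. Cd59, which blocks the membrane pore, had 433 CPM in the control, 323, 242 and 252 CPM at day 1, and 462 and 361 CPM at day 7. All day 1 values of Cd59 lay below the control and below both day 7 values, the order seen for Cfb. Cd55, which dissociates the C3-cleaving enzymes, had 2.34 CPM in the control, 2.5, 62.8 and 29.0 CPM at day 1, and 20.7 and 12.2 CPM at day 7. Cr1l, the rodent regulator Crry, ranged from 64.4 to 106 CPM over all libraries.

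Of the terminal components, C7 was abundant. C7 had 441 CPM in the control, 178, 391 and 150 CPM at day 1, and 462 and 293 CPM at day 7. C6 had 2.60 CPM in the control, 2.05, 28.6 and 41.8 CPM at day 1, and 15.7 and 10.1 CPM at day 7. C8g, a subunit of C8, had 1.46 CPM in the control and 1.76 to 3.22 CPM in the treated libraries. C5, the source of C5a, had at most 6 counts in any library, or 0.193 CPM, and the pore components C8a, C8b and C9 had means below 1 CPM.

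**Figure D4:**
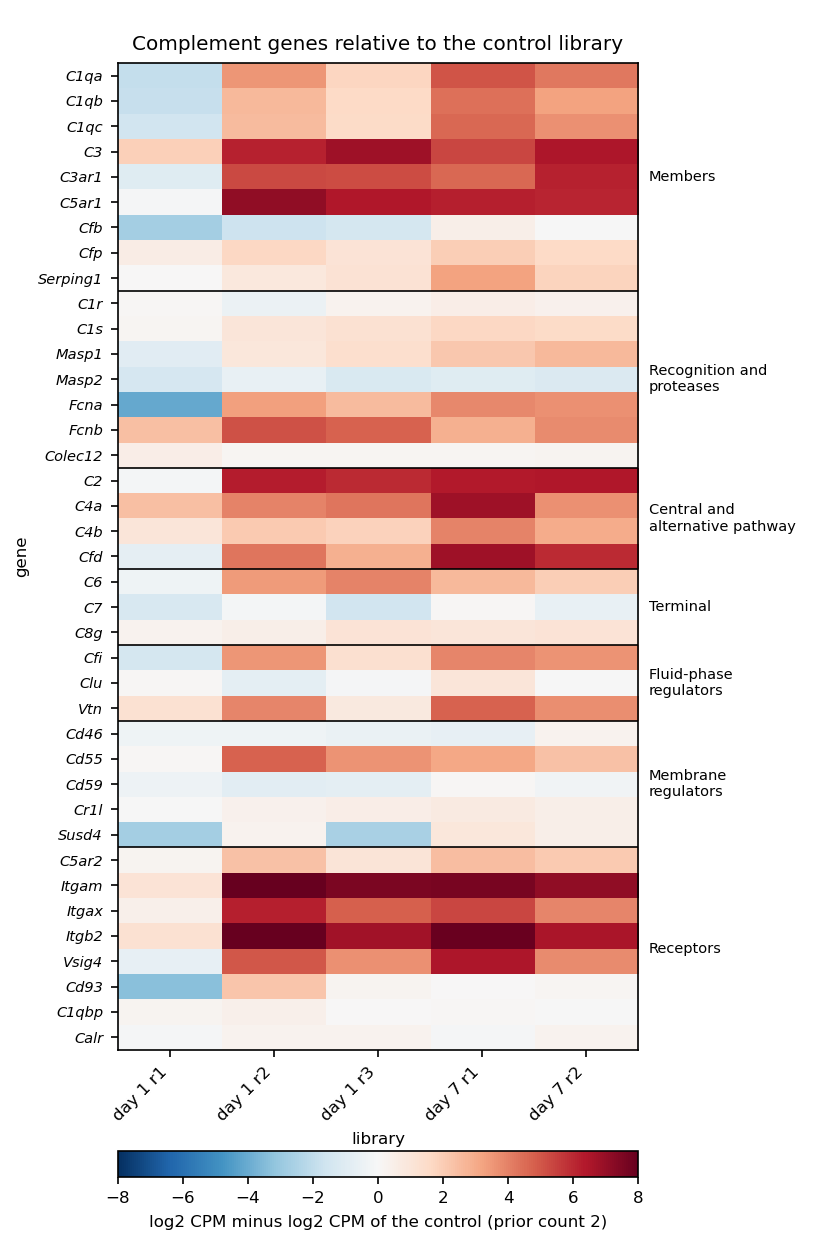
Log2 CPM of each treated library minus that of the control library for the 9 members and for 30 other complement genes with a mean of at least 1 CPM, grouped by role; the colour scale stops at 8 in each direction. Day 1 replicate 1 is pale or blue where the other 4 libraries are dark red (C2, C3ar1, C5ar1), and Cfb is blue at day 1 and near white at day 7.

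In order of level per length, Serping1 led in all groups. In the control it was followed by Cfb (20.1 FPKM), the C1q chains (5.92 to 7.01 FPKM) and Cfp (5.05 FPKM), with C5ar1, C3ar1 and C3 below 1 FPKM. At day 1 the FPKM ranges of every pair of neighbours in the order overlapped. At day 7 the order of mean FPKM was Serping1 (344), C1qa (165), C1qc (129), C1qb (119), C5ar1 (36.6), Cfb (25.9), Cfp (19.0), C3ar1 (8.19) and C3 (4.23). The day 7 ranges of C1qb and C5ar1, of C5ar1 and Cfb, of Cfb and Cfp, and of Cfp and C3ar1 did not overlap, whereas Serping1 overlapped C1qa, the C1q chains overlapped one another, and C3ar1 overlapped C3.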

How the data were processed

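Read counts per gene symbol and FPKM values were made by the authors and deposited as whole-series tables; per the labels' protocols mRNA was selected with poly-T. The submitters' processing notes list StringTie 1.3.1, HISAT2, Bowtie2 2.2.8 and fastp 0.18.0, without their role. Genome build, annotation and strand setting: not given in the sources used here.

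From the counts, genes passing filterByExpr (15860) were normalised by the trimmed mean of M-values and fitted together by group with edgeR 4.0.16 (robust quasi-likelihood, R 4.3.3). The 3 residual degrees of freedom come from treated libraries, whose spread stands in for that of the control. The deposited FPKM values were used only to compare levels between genes. The likeness rule took the 5 non-member genes with the highest Pearson r. Members, lists and tests were chosen with earlier results of these data known. Named were all 9 members, and of the other complement list those called in an alternative and, as levels, the genes averaging 1 CPM or more; Mbl1, Mbl2, C5, C8a, C8b and C9, and the neighbouring gene pairs, were picked once values were known. The scripts were tested on simulated counts. Alternatives were 2 other normalisations, 2 other filters, DESeq2 1.42.0, limma-voom (limma 3.58.1), each treated library left out, no haemoglobin or mitochondrial genes, the 5 treated libraries alone and a replicate block, also by the labels' other numbering (added after seeing the data). In the other complement list, 1 gene is counted but not reported here.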

Additional observations from a re-analysis of the deposited data

How the results depend on the processing

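Numbers of calls changed with DESeq2, without day 1 replicate 1 and with a block added later. With DESeq2, day 1 against the control had 2 members, 809 genes and 6 other complement genes called, day 7 against the control 5, 781 and 6, and day 7 against day 1 2, 505 and 1, where edgeR had 0 throughout. Leaving out each treated library in turn gave 0 to 4 members, 0 to 885 genes and 0 to 7 other complement genes at day 1 against the control, 0 to 4, 0 to 693 and 0 to 7 at day 7 against the control, and 0 in all between the days. All the calls of those ranges came from leaving out day 1 replicate 1. With no count filter 1 gene was called at day 7 against the control. Directions that turned were of small, uncalled changes. Without 1 library at a time, Cfb at day 7 against the control ran from -0.02 to 0.44 on the log2 scale, and between the days C3 from -0.61 to 0.75, C3ar1 from -0.13 to 1.46 and C5ar1 from -0.69 to 0.68. C5ar1 between the days was also 1.64 with limma-voom and 2.52 with the replicate block by title number, against -0.11; the cause was not tested. Of the members' fold changes under alternatives, 324 kept direction and side of the threshold, 19 became called and 8 turned. The replicate block by title number called 0 members, 0 genes and 0 other complement genes between the days. The descriptions number the day 7 libraries 2 and 3 where the titles have 1 and 2. A replicate block by those numbers, added after seeing the data, called 2 members (C1qb and C1qc, log2 fold changes 1.72 and 2.06), 103 genes and 1 other complement gene (Cfd), and C3 was -0.58. In that block day 1 replicate 1 has a number of its own and so adds nothing to the difference. Deviations of same-numbered libraries from their group means correlated at -0.0481 and -0.0545 by title and at 0.0545 and -0.0101 by description. The 2 day 7 libraries deviate from their mean as mirror images, so these values do not test the numberings separately. Neither numbering is shown to pair the libraries. The single control, and 1 residual degree of freedom in each block fit, limit all of these tests.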

Other observations

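Per length, the ratio of Cfb to C3 FPKM was 408 in the control, 13.7, 1.51 and 1.12 in day 1 replicates 1 to 3, and 11.2 and 3.77 in day 7 replicates 1 and 2. The control figure rests on 8 counts of C3. The sum of 4 markers listed for mesothelium, the cell layer that covers serous surfaces, was also higher in the libraries rich in leukocyte markers. It was 1.75 CPM in the control, 0.576, 61.9 and 26.8 CPM at day 1, and 63.8 and 98.9 CPM at day 7. Nearly all of it was Msln, with 58.6 and 26.0 CPM in day 1 replicates 2 and 3, and 58.35 and 94.9 CPM at day 7. Upk3b had at most 2 counts in any library, and Lrrn4 and Wt1 at most 2.22 and 5.07 CPM. Upk3b, Lrrn4 and Wt1 were at 0 counts in the control and in day 1 replicate 1. Cd163, a scavenger receptor of tissue macrophages, had 9.16 CPM in the control, 0.833, 7.0 and 2.80 CPM at day 1, and 56.0 and 26.0 CPM at day 7, the order of libraries seen for the C1q chains except that the control exceeded every day 1 library. Cd93, a receptor once described as binding C1q and carried by endothelium and myeloid cells, had 97.6 CPM in the control, 9.48, 457 and 115 CPM at day 1, and 98.2 and 110 CPM at day 7. The 10 markers of T and NK cells summed to 6.40 CPM in the control, 4.32, 99.6 and 36.5 CPM at day 1, and 196 and 172 CPM at day 7. Most of that sum was Cd4, with 5.62 CPM in the control, 2.53, 78.55 and 18.3 CPM at day 1, and 173 and 153 CPM at day 7. Cd3e, also on that list, ran from 0 counts in the control to 2.10 CPM in day 7 replicate 2. The height of the sum at day 7 therefore rests largely on Cd4 alone. Among complement genes that differed little between libraries, Colec12, a scavenger receptor with a collectin domain, ranged from 95.2 to 135 CPM, C1qbp, a mitochondrial protein found through its binding to C1q, from 45.4 to 61.0 CPM, and Calr, calreticulin, from 565 to 742 CPM. Of the other regulators, Susd4 ranged from 0.897 CPM in day 1 replicate 1 to 11.7 CPM in day 7 replicate 1, Cd46 from 2.13 to 4.10 CPM over all libraries, Vtn from 0.130 CPM in the control to 4.87 CPM in day 7 replicate 1, and Cfi from 0 counts in day 1 replicate 1 to 2.27 CPM in day 7 replicate 1.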
